A study of Mus musculus with 6 samples.

Results

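Core splicing factors were followed in 6 single-cell RNA libraries of mouse oocytes collected in germinal vesicle (GV) arrest, before meiosis resumes and while the nucleus is intact. The members were found by gene symbol, and the rule uses no measured value: the SR proteins (symbols Srsf and a number), the proteins of the small nuclear ribonucleoproteins, or snRNPs (symbols beginning Snrp), and the subunits of the SF3A and SF3B complexes. This rule found 32 genes among the 25239 genes of the count table. Of these, 11 encode SR proteins, 8 proteins of the Sm ring, 4 proteins specific to the U1 or U2 snRNP, 3 subunits of SF3A and 6 subunits of SF3B.

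Both groups came from female CD-1 mice, an outbred stock, 4 to 6 weeks old. Cumulus-oocyte complexes taken from antral follicles were microinjected with water in the control group and with a mixture of phthalate metabolites in the other. Both were then cultured in maturation medium with serum, follicle-stimulating hormone and pyruvate until GV oocytes were collected. The labels give neither the dose nor the members of the mixture. Each group has 3 libraries, prepared with the Smart-seq3 workflow from RNA primed with oligo(dT). The titles number them 1 to 3, and the protocol can be read as a single oocyte per group. No animal or culture is named for any library, so each group counts as 1 sample here. Differences between the groups have no replicate check, and no test was run on them.

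The spliceosome removes introns from pre-mRNA. The U1 snRNP recognises the start of an intron and the U2 snRNP its branch site. Each of these particles is built on a ring of Sm proteins, and U2 also carries the SF3A and SF3B complexes, which hold the branch site. SR proteins bind exons and help these particles to assemble there. Growing oocytes transcribe and splice actively, whereas fully grown GV oocytes are largely silent in transcription and live on stored messages.

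Library totals ranged from 252267 to 300917 gene counts, so that 1 count was worth 3.32 to 3.88 counts per 1000000 (CPM, scaled with the TMM factors described under processing). The oocyte markers Gdf9 and Zp3 lay at 7610 to 11864 CPM and at 2227 to 4582 CPM. Of 20 oocyte markers listed, 19 were in the count table, and 1 of these had 0 counts in every library. Of 20 markers of cumulus and granulosa cells, 10, among them Amh and Foxl2, had 0 counts in every library. Only 1 of the 20 reached a mean count of 10, at a log2 ratio of phthalate over water of -0.64. The whole list took 0.00458% to 0.0145% of the counts in the water libraries and 0.00364% to 0.00881% in the phthalate libraries, and its part in the differences given below was not tested. Of 13 markers of theca, stroma and blood, 11 had 0 counts in every library. This list took 0.00408% to 0.00831% of the counts in the water libraries and 0.00271% to 0.00476% in the phthalate libraries. In it 1 gene reached a mean count of 10, at a log2 ratio of -0.42.

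The promoters were searched for sequence motifs, which the rule did not use. RefSeq promoters (250 bases before to 50 bases after the transcription start, GRCm38.p6) were given for 28 of the 32 members, 36 promoters in all. The core motif of ETS transcription factors, CCGGAAG on either strand, was present in 17 of the 36 promoters, or 47.2%. It was present in 10 of the 17 promoters of members whose mean count reached 10 (58.8%), in 20.5% of the 4762 promoters of all genes whose mean count reached 10 and in 8.86% of all 32851 promoters. By gene, 14 of the 28 members with a promoter held it. These were all 3 SF3A genes, 3 of 4 SF3B genes, 2 of 4 U1 or U2 specific genes, 2 of 6 Sm ring genes and 4 of 11 SR genes. The TATA box, TATAAA on either strand, was present in 5 of the 36 promoters (13.9%), against 6.89% for genes whose mean count reached 10 and 13.6% of all promoters. It was present in 3 of the 17 promoters of members whose mean count reached 10 (17.6%). Counted from the start, its matches began at -29 in Srsf2, -18 in Srsf3, -96 in Sf3b3, -171 in Snrpa and -201, on the opposite strand, in Snrpn. The GC box, GGGCGG on either strand, occurred in 61.1% of the members' promoters and in 63.6% of the 4762 promoters of genes whose mean count reached 10. Of the other 3 motifs searched on either strand, CCAAT was in 30.6% of the members' promoters, the NRF1 motif GCATGCGC in 5.56% and the YY1 motif AAGATGGC in 2.78%, beside 39.8%, 6.45% and 5.65% of the 4762. A match is a description of these letters and not a measured binding site.

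The 100 bases before the RefSeq start are shown for 3 genes with the ETS core and for 2 SR genes with a TATA box, with the matches in capitals. Snrpb2 (chr2:143062969-143063068, plus strand) and Srsf11 (chr3:158031749-158031848, minus strand, the more downstream of 2 RefSeq starts) are the genes that differ most between the groups among the 17 members with enough counts. Sf3a1 (chr11:4160254-4160353, plus strand) is an SF3A gene with little difference. Srsf3 (chr17:29032560-29032659, plus strand) and Srsf2 (chr11:116853095-116853194, minus strand) carry the TATA box.
Snrpb2: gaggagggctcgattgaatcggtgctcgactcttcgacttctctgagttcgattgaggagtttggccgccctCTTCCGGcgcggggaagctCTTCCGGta
Srsf11: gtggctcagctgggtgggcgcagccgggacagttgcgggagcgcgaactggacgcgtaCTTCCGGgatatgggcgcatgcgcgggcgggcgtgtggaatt
Sf3a1: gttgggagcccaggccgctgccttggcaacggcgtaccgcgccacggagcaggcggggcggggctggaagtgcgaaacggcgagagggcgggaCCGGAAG
Srsf3: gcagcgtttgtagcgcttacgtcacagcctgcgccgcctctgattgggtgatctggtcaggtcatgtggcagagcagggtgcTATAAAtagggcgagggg
Srsf2: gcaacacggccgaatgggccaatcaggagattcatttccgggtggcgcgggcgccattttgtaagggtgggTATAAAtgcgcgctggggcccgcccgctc

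Snrpb2 holds 2 ETS cores on the opposite strand, with first bases at positions -28 and -9 from the start. In Srsf11 the match begins at -42 and in Sf3a1 at -7. The TATA box begins at -18 in Srsf3 and at -29 in Srsf2. The annotated starts differ between sources: GENCODE release M21 begins Snrpb2 at chr2:143063039, Srsf3 at chr17:29032628 and Sf3a1 at chr11:4160350, inside the windows printed. By those starts both ETS cores of Snrpb2 and the TATA box of Srsf3 lie downstream of the start, and the ETS core of Sf3a1 spans it. For Srsf11 the same release begins the gene at chr3:158036639, upstream of the window printed. By that start the window and its ETS core lie inside the gene.

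Per length of transcript, the Sm ring had the highest summed transcript level of the 5 roles and the SR proteins the lowest. Levels were compared between genes as CPM per kb of transcript (median length of the protein-coding transcripts), averaged over the 6 libraries. The summed level of the Sm ring genes was 2081 CPM per kb. SF3B reached 267, SF3A 259.9, the U1 and U2 specific proteins 183 and the 11 SR genes together 151. With the longest transcripts the sums were 1676 for the Sm ring, 248 for SF3A, 226 for SF3B, 109.5 for the U1 and U2 specific proteins and 104 for SR genes, so the order below the Sm ring depends on the length used. Among the 12543 genes with a count and a length, whose median level was 7.97 CPM per kb, 10 members lay above the 85th percentile. None of the 10 was an SR gene.

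**Figure D1:**
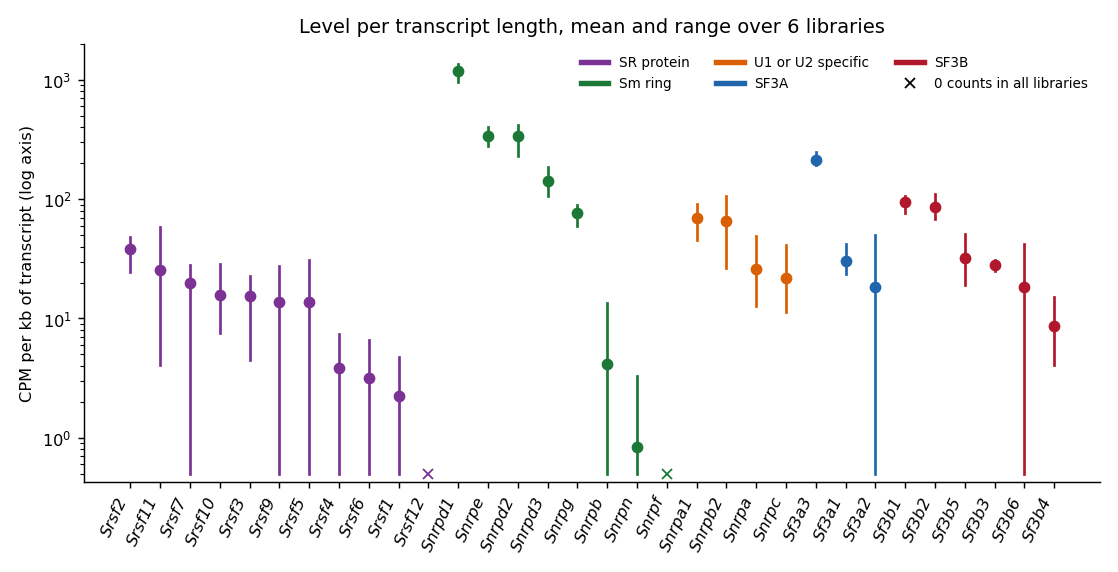
Level of each of the 32 members in CPM per kb of transcript (log axis), with points for the mean and lines for the range over the 6 libraries, grouped by role. Snrpd1 stands highest at 1179 CPM per kb, lines that reach the bottom of the plot include a library with 0 counts, and crosses mark Srsf12 and Snrpf with 0 counts throughout.

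Within the Sm ring the levels were unequal, although the proteins join the ring in equal copies. Snrpd1, which encodes SmD1, had a level of 1179 CPM per kb (range 956 to 1352), percentile 99.5, and made up 56.6% of the ring's summed level. Snrpe (341 CPM per kb, range 280.2 to 400.3) and Snrpd2 (338 CPM per kb, range 229 to 420.0) followed, with ranges that overlapped. Snrpd3 had 142 CPM per kb (107 to 184) and Snrpg 76.1 (60.1 to 88.7), each below the range of the gene before it. Snrpd1 exceeded Snrpg by 15.5-fold in this measure. With the longest transcript as the length, Snrpd1 fell to 920.4, Snrpd3 to 81.4 and Snrpe to 256 CPM per kb, and Snrpd2 then stood above Snrpe. Snrpg stayed at 76.1, so that Snrpd3 was no longer clearly above it.

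The remaining Sm genes were nearly or wholly without counts. Snrpb, which encodes the SmB proteins, had 0 counts in the 3 water libraries and in phthalate library 1, and 4 counts in each of phthalate libraries 2 and 3. Against a floor of 3 counts over the water group, that is at least 2.8-fold higher in the phthalate group. It rests on 8 counts in all, and the lower limit of the counting interval of the log2 ratio was 0.84, or -0.53 on read pairs, which includes 0. The log2 ratio against the floor was 1.49 with all libraries. It was 0.87 without water library 2 and 2.03 without phthalate library 1. None of the 75-base stretches of Snrpb transcripts recurred in transcripts of another GENCODE gene. Snrpn, which encodes the SmB-like protein SmN and is known for its imprinted expression in brain, had 1 count in water library 2, 2 in phthalate library 2 and 0 elsewhere. Snurf, which shares part of the Snrpn exons, was at 0 in every library.

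Snrpf, which encodes SmF, had 0 counts in all 6 libraries, which allows up to 3 of the 1676410 counts, or 1.79 CPM, for counting error only. The gene (chr10:93583029-93589706, minus strand, GRCm38) has 85.4% of its exon bases inside exons of Ccdc38 and 4933408J17Rik. Of its 75-base stretches, 85.4% recurred in another gene's transcripts, on either strand. Ccdc38 had 27 counts in all, 9 in the water and 18 in the phthalate group, and 4933408J17Rik had 0. How reads over such shared bases were counted is not given in the sources used here, and its part in the 0 of Snrpf was not tested.

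Sequence shared with other genes was smaller for most members. No 75-base stretch was shared for 11 of the 32 members, and over 10% of the stretches were shared for 11 others. Beside Snrpf, the highest shares were 63.8% for Srsf4 (with Gm12992) and 43.8% for Sf3b4 (mostly with Gm7935). The low counts of these genes given below carry that limit.

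Among the U1 and U2 specific genes, Snrpa1 had 69.8 CPM per kb (range 45.7 to 90.4) and Snrpb2 65.8 (26.7 to 106). They encode the A′ and B″ proteins of U2, which bind its RNA as a pair, and their ranges overlapped. Both had 43.0 CPM per kb with their longest transcripts. Snrpa, which encodes the A protein of U1, had 25.9 CPM per kb, and Snrpc, which encodes the C protein that helps U1 hold the start of the intron, had 21.9. The value of Snrpc dropped to 3.34 CPM per kb with its longest transcript.

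In SF3A, Sf3a3 had 211 CPM per kb (range 193 to 251), 6.93-fold above Sf3a1 at 30.4 (23.6 to 42.5), with no overlap. Sf3a2 had 18.5 CPM per kb (0 to 49.7), or 6.52 with its longest transcript. Sf3a3 held 81.2% of the complex's summed level, Sf3a1 11.7% and Sf3a2 7.11%, or 2.63% with the longest transcripts. In SF3B, Sf3b1, the large subunit that clamps the branch site, had 94.0 CPM per kb (76.1 to 107), and Sf3b2 85.5 (67.8 to 110.0). Their ranges overlapped with these lengths, but with the longest transcripts Sf3b2 had 55.1 and Sf3b1 again 94.0. Sf3b5 (32.1) and Sf3b3 (28.3), which encode contacting subunits of the complex core, lay close together and below. Sf3b6 had 18.2 CPM per kb, or 7.76 with its longest transcript, and Sf3b4 8.61.

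The 10 SR genes with any count had a median of 14.6 CPM per kb, above the 7.97 of all genes with a count. Srsf2, which encodes a protein of nuclear speckles, was highest at 38.0 CPM per kb (range 24.7 to 48.0), followed by Srsf11 at 25.6 (4.08 to 58.6) and Srsf7 at 19.8 (0 to 28.0). Srsf1, which encodes a well-studied SR protein, had 2.24 CPM per kb, from 11 counts in all libraries together. Srsf12 had 0 counts in every library. The ranges of neighbouring SR genes in this order overlapped. With the longest transcripts Srsf11 dropped to 13.6 CPM per kb, beside 13.7 for Srsf7 and 12.9 for Srsf10.

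The comparison of phthalate with water asks how the mixture affects the transcripts of the oocyte, here those of the splicing machinery. The members as a whole took a similar share of the counts in both groups. They made up 0.397%, 0.372% and 0.388% of the counts in water libraries 1, 2 and 3, and 0.417%, 0.369% and 0.382% in phthalate libraries 1, 2 and 3. Summed over libraries, the share was 0.385% (3289 counts, 95% exact binomial interval 0.372 to 0.398) for water and 0.388% (3193 counts, 0.375 to 0.402) for phthalate.

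By role, the log2 ratio of the summed shares, phthalate over water, was 0.04 for the Sm ring (95% interval -0.07 to 0.14), -0.08 for SF3A (-0.27 to 0.11) and -0.08 for SF3B (-0.22 to 0.05). It was 0.13 for SR genes (-0.13 to 0.40) and 0.30 for the U1 and U2 specific genes (0.01 to 0.60). These intervals cover counting error only, and PCR copies and the 2 mates of a read pair are not independent molecules. With the counts halved to read pairs, the last interval was -0.12 to 0.73. Without Snrpb2 the ratio of the U1 and U2 specific genes was 0.03, and without Srsf11 that of the SR genes was -0.07. With each library left out, the ratio of the U1 and U2 specific genes ranged from 0.18, without water library 2, to 0.39, and the signs for SR genes, the Sm ring and SF3A turned. The omissions of Snrpb2 and Srsf11 were chosen after the values were seen.

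Gene by gene, 17 of the 32 members had a mean count of at least 10 over the 6 libraries, a limit that does not look at the groups. Of these 17, Srsf11 and Snrpb2 were at least 1.5-fold higher in the phthalate group, while 6.76% of the 4511 genes with that mean count were. None of the 17 was 1.5-fold lower, where 7.83% of the 4511 genes were. The median log2 ratio of the 17 was -0.05, beside 0.01 for the 4511 genes, with 7 above 0 and 10 below. The members' median ranged from -0.048 to 0.086 with each library left out, so its sign was not stable. For 14 of the 17 the ratio was under 0.3 in size, and for 14 the counting interval included 0. The shares of the 4511 genes with such a ratio or interval were not computed.

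The CPM of the groups did not overlap for 1 of the 17, Snrpb2, in the higher direction, where 5.10% of the 4511 genes did so. None of the 17 had all phthalate values below all water values, where 4.97% did. With 17 genes, shares of this size amount to about 1 gene in each direction, so neither count stands out from the table as a whole. Over the 30 members with any count, 6 were at least 1.5-fold higher and 1 lower, where 21.5% and 18.1% of the 12804 genes with a count were. Without overlap 1 of the 30 was higher and 1 lower, where 4.22% and 3.75% of those genes were. Of the 13 members whose mean count reached 20, 1 was higher and 0 lower, where 3.92% and 4.13% of 2784 genes were.

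**Figure D2:**
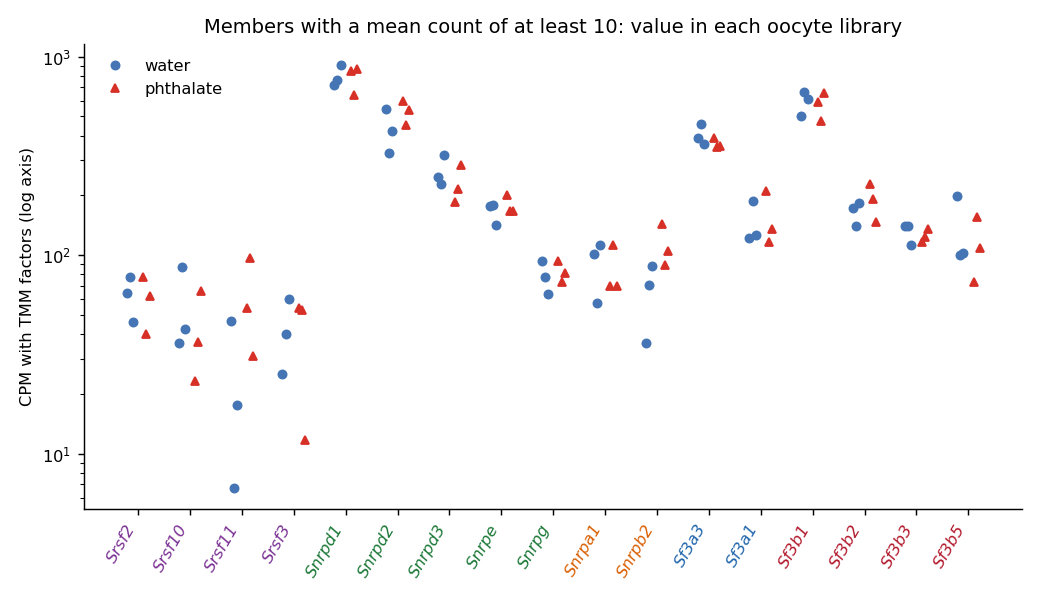
CPM (log axis) of the 17 members with a mean count of at least 10 in each of the 3 water libraries (circles) and 3 phthalate libraries (triangles), with gene names coloured by role. The circles and triangles of each gene overlap except for Snrpb2, whose lowest phthalate value of 89.6 lies just above its highest water value of 88.1.

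**Figure D3:**
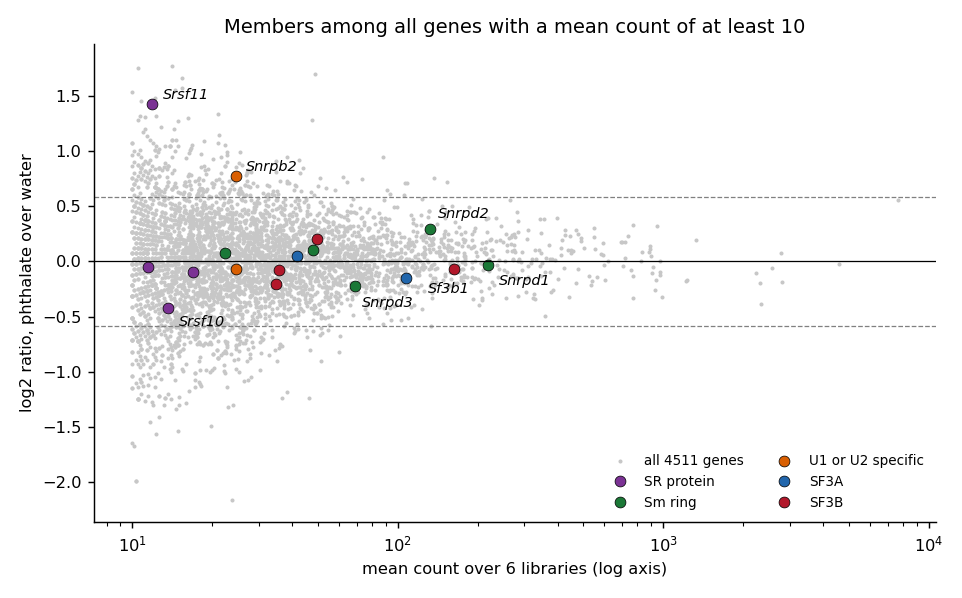
Log2 ratio of phthalate over water against the mean count (log axis) for 4511 genes (grey) and the 17 members among them (coloured by role), with dashed lines at 1.5-fold. The members with the highest counts lie near 0, and Srsf11 and Snrpb2 lie above the upper line.

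Snrpb2, which encodes the B″ protein of U2, had 36, 70.5 and 88.1 CPM in water libraries 1, 2 and 3, and 143, 89.6 and 105 CPM in phthalate libraries 1, 2 and 3. All phthalate values were above all water values, by a narrow margin between phthalate library 2 and water library 3. The log2 ratio of the sums was 0.77 (95% interval 0.28 to 1.28, and 0.06 to 1.51 on read pairs), from 56 and 91 counts, or 1.71-fold. Without water library 1 it was 0.49 and without phthalate library 1 it was 0.56, both under 1.5-fold. Its partner Snrpa1 had 101, 57.0 and 113 CPM in the water libraries and 69.7, 113 and 69.9 CPM in the phthalate libraries. The groups overlapped and the ratio was -0.06 (-0.55 to 0.42). The difference between the 2 genes was not tested.

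Srsf11, which encodes an SR-related protein known to contact U1 and U2 components, had the highest ratio of the 17. Its values were 46.8, 6.71 and 17.6 CPM in the water libraries and 54.2, 96.2 and 31.1 CPM in the phthalate libraries. Water library 1 lay above phthalate library 3, so the groups overlapped. The log2 ratio was 1.42 (0.65 to 2.25, and 0.32 to 2.64 on read pairs), from 20 and 51 counts. It ranged from 0.87 without phthalate library 2, where the mean count also fell under 10, to 2.37 without water library 1.

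The more abundant Sm genes differed little between the groups. Snrpd1 had 716, 762 and 906 CPM in the water libraries and 848, 640.4 and 866 CPM in the phthalate libraries, with a log2 ratio of -0.03 (-0.19 to 0.13). This was the narrowest interval of all members, from 683 and 635 counts. Snrpd2, which encodes SmD2, the partner of SmD1, had 544, 325 and 423 CPM against 596, 451 and 539.7 CPM. Its ratio was 0.29 (0.09 to 0.50, and 0.003 to 0.59 on read pairs), with an interval above 0, although water library 1 lay above 2 of the phthalate libraries. Without water library 2 the ratio was 0.11.

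Snrpd3, which encodes SmD3, had 248, 228 and 321 CPM in the water libraries and 186, 216 and 283 CPM in the phthalate libraries, with a ratio of -0.22 (-0.51 to 0.07). Snrpe, which encodes SmE, had 176, 178 and 141 CPM against 201, 166 and 167 CPM, and a ratio of 0.10 (-0.24 to 0.45). Snrpg, which encodes SmG, had 93.6, 77.2 and 63.4 CPM against 92.9, 73.0 and 81.5 CPM, and a ratio of 0.07 (-0.44 to 0.58). The groups overlapped for all 3 genes, and neither the highest nor the lowest library was the same for all of them.

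In SF3A, Sf3a3 had 389, 456 and 363 CPM in the water libraries and 391, 352 and 353 CPM in the phthalate libraries, with a ratio of -0.15 (-0.37 to 0.08). Sf3a1 had 122, 188 and 127 CPM against 209, 116 and 136 CPM, with a ratio of 0.05 (-0.32 to 0.42). In each group 1 library stood above the rest, water library 2 and phthalate library 1.

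In SF3B, Sf3b1 had 504, 664 and 609.7 CPM in the water libraries and 592, 471 and 652 CPM in the phthalate libraries, with a ratio of -0.07 (-0.25 to 0.12). Sf3b2, whose protein binds that of Sf3b4, had 173, 141 and 183 CPM against 228, 192 and 148 CPM, with a ratio of 0.20 (-0.14 to 0.54). Sf3b3 had 140.4, 140.9 and 113 CPM against 116, 123 and 136 CPM, with a ratio of -0.07 (-0.48 to 0.32). The groups overlapped for these 3 genes. Sf3b5 had 198, 101 and 102 CPM against 73.6, 156 and 109 CPM, with a ratio of -0.21 (-0.61 to 0.20). Its highest value was that of water library 1, and without that library the ratio was 0.18.

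The other SR genes with a mean count between 10 and 20 varied widely from library to library. Srsf2 had 64.8, 77.2 and 45.8 CPM in the water libraries and 77.4, 39.8 and 62.1 CPM in the phthalate libraries, with a ratio of -0.10 (-0.69 to 0.49). Srsf3, a small SR protein known to be needed for mouse oocytes to leave the GV stage, had 25.2, 40.3 and 59.9 CPM against 54.2, 53.1 and 11.6 CPM, with a ratio of -0.05 (-0.78 to 0.67). Srsf10, which encodes a splicing repressor when dephosphorylated, had 36, 87.2 and 42.3 CPM against 23.2, 36.5 and 66.0 CPM, with a ratio of -0.42 (-1.10 to 0.24). Water library 2 was the highest of Srsf10, and without it the ratio was 0.08. Without water library 1, water library 3 or phthalate library 3 Srsf10 was 1.5-fold lower, at -0.65, -0.59 and -0.89. The counting intervals of all 3 genes included 0.

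The other 13 members with counts had mean counts from 0.5 to 9.5. Sf3b4 had 8, 7 and 6 counts in the water libraries and 2, 3 and 2 in the phthalate libraries, a log2 ratio of -1.51 (-2.99 to -0.22) whose interval on read pairs was -3.79 to 0.33. Its CPM values did not overlap between the groups. Srsf9 had 3, 0 and 3 counts against 6, 8 and 2, with overlap, a ratio of 1.49 (0.06 to 3.13, and -0.57 to 4.04 on read pairs) that was 0.87 without water library 2. Sf3a2 had 2, 2 and 3 counts against 6, 0 and 10, with overlap, a ratio of 1.27 (-0.10 to 2.79) that was 0.39 without phthalate library 3 and 1.93 without phthalate library 2.

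Srsf7 had 11, 12 and 8 counts in the water libraries but 0, 13 and 12 in the phthalate libraries, and Srsf5 had 9, 6 and 1 against 0, 6 and 12. Phthalate library 1 had 0 counts for Srsf4, Srsf5, Srsf6 and Srsf7 alike. It had the smallest total, and with the TMM factors its total was 258233, beside 257549 for phthalate library 3. The cause of these zeros was not tested, and these genes were picked after their counts were seen. The intervals of these genes, and those of Srsf1, Sf3b6, Snrpa and Snrpc, all included 0.

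**Figure D4:**
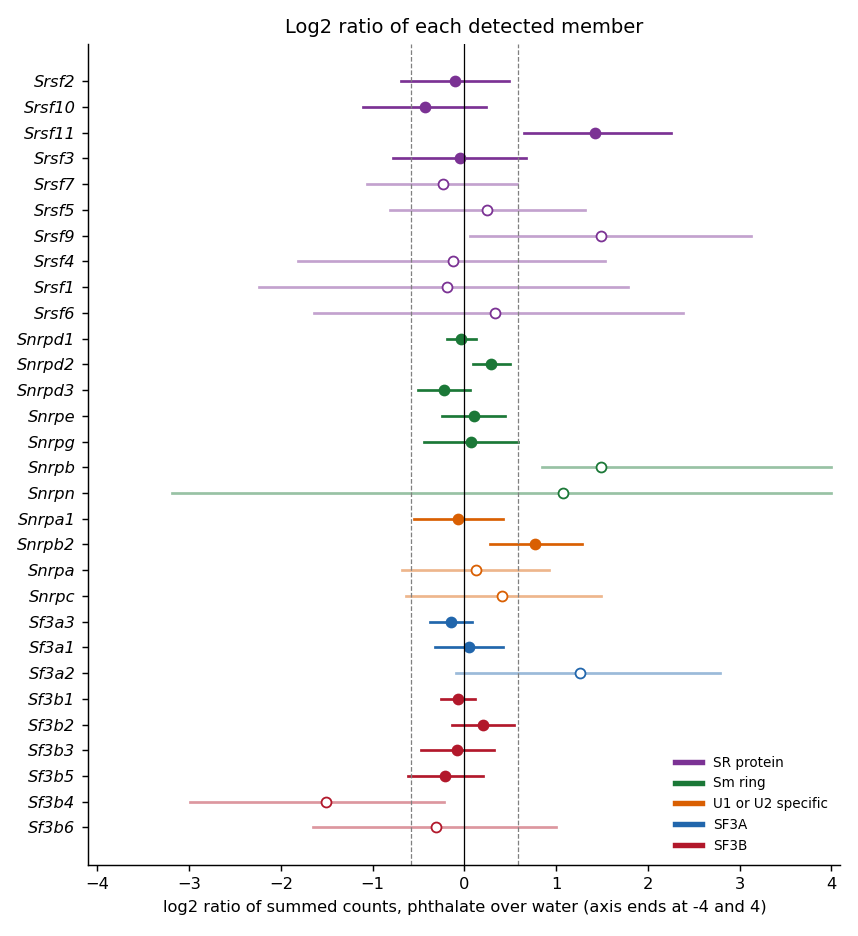
Log2 ratio of summed counts, phthalate over water, for the 30 members with a count, with 95% intervals for counting error and dashed lines at 1.5-fold (filled points: mean count of at least 10). Intervals narrow to -0.19 to 0.13 for Snrpd1 and run beyond the axis for Snrpb, whose water sum of 0 was set to 3 counts, and for Snrpn.

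The other genes of the splicing pathway were taken from 9 lists of 173 genes, of which 115 had a mean count of at least 10. Their median log2 ratio was 0.16, with 81 genes above 0 and 34 below. There were 14 genes at least 1.5-fold higher (12.2%, beside 6.76% of all 4511 genes) and 2 at least 1.5-fold lower (1.74%, beside 7.83%). Without overlap between the groups, 12 of the 115 were higher and 4 lower, beside 5.10% and 4.97% of the 4511 genes. Of the 79 genes among them whose mean count reached 20, 5 were higher and 1 lower, 6.33% and 1.27%, beside 3.92% and 4.13% of 2784 genes. Of the 16 genes past 1.5-fold, 7 stayed past it with each library left out, namely Cwc22, Hnrnph1, Luc7l, Prpf38a, Scaf8, Thoc2 and Thoc7. The other 9 dropped under it. How many of the called genes among all 4511 would stay past it was not computed. Sugp1 went to 0.12, Htatsf1 to 0.44 and Prmt7 to 0.37 without phthalate library 2. Hnrnpab went to 0.26 and Usp39 to 0.45 without phthalate library 1, and Strap to 0.25 without phthalate library 3. Clns1a went to 0.32 without water library 1, Cherp to 0.34 without water library 2 and Lsm2 to 0.49 without water library 3. The lists were written with earlier results in view, and no test was run on them.

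Partners of U1, U2 and the branch site had a median ratio of 0.24 over 17 genes, with 4 genes 1.5-fold higher and 0 lower. Beside Cherp these were Luc7l, Htatsf1 and Sugp1, at 0.83, 0.84 and 0.76, with mean counts under 20. Those 3, and the genes named below as 1.5-fold higher or lower at mean counts under 20, were picked after their values were seen. Cherp, which encodes a U2-associated protein, was the highest of its abundant genes at 0.67 (0.21 to 1.14), with 140, 40.3 and 52.9 CPM in the water libraries and 132, 109.5 and 128 CPM in the phthalate libraries. Water library 1 was above all phthalate values, and without it the ratio of Cherp was 1.40. In the same list U2af1, which reads the end of the intron, was at -0.11 (-0.51 to 0.28).

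The tri-snRNP list, the proteins of the U4, U5 and U6 particles, had a median of 0.19 over 20 genes, with 2 higher, Prpf38a and Usp39 (0.64, picked likewise), and 0 lower. Prpf38a, needed for activation of the spliceosome, had 86.4, 60.4 and 67.0 CPM in the water libraries and 132, 143 and 93.2 CPM in the phthalate libraries, without overlap, and a ratio of 0.80 (0.33 to 1.28). Snrnp200, the helicase that unwinds U4 from U6, was lowest at -0.26 (-0.62 to 0.10). The list's median was 0.11 without water library 1, 0.09 without phthalate library 2 and 0.03 without phthalate library 3.

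Of the 8 genes of the LSm proteins, most of which bind U6 RNA as a ring, 4 had a mean count of at least 10. These 4 lay above 0, with a median of 0.33, which was 0.19 without water library 1. Of the 4 with fewer counts, Lsm1 was at -0.29 and Lsm5 at -0.66, and Lsm4 and Lsm8 were above 0. Lsm2 had 57.6, 73.8 and 35.2 CPM in the water libraries against 112, 86.3 and 81.5 CPM, without overlap, and a ratio of 0.74 (0.20 to 1.29). Lsm6 was lowest of its abundant genes at 0.28 (-0.11 to 0.68).

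The Prp19-associated and activated spliceosome list had a median of 0.11 over 24 genes, with 1 higher, Cwc22 at 1.48, and 0 lower. Ctnnbl1, a component of the Prp19-associated complex, had 385, 369 and 370.0 CPM in the water libraries and 585, 514 and 404 CPM in the phthalate libraries, without overlap, and a ratio of 0.42 (0.21 to 0.64). Syf2 went the other way without overlap, with 374, 379 and 335 CPM against 309.8, 272 and 229 CPM, and a ratio of -0.42 (-0.68 to -0.17). The ratios of Ctnnbl1 and Syf2 were under 1.5-fold.

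Genes of snRNP assembly, the SMN complex and its partners, had a median of 0.47 over 7 genes, with 3 higher, Strap (0.74), Prmt7 (0.73) and Clns1a (0.59), and 0 lower. The median depended on genes with few counts: for the 3 with a mean count of at least 20 it was 0.04. Without phthalate library 1 the median over the list was 0.20. Smn1, the gene of the SMN protein, was at 0.27 (-0.14 to 0.67), and Gemin7 was at -0.00 (-0.24 to 0.24).

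Regulators of SR proteins, including the Clk and Srpk kinases, had a median of -0.06 over 17 genes, with 0 higher and 1 lower. The median was 0.07 without water library 2, 0.14 without phthalate library 3 and 0.10 without a filter, so its sign was not stable. Scaf8 was that gene, at -0.84 (-1.41 to -0.28), with 93.6, 67.1 and 116 CPM against 38.7, 59.7 and 54.4 CPM and no overlap. Srek1, which encodes an SR-related regulator, was highest at 0.51 (0.09 to 0.95).

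The hnRNP list, whose proteins often oppose SR proteins, had a median of 0.11 over 15 genes, or 0.20 without phthalate library 3, with 2 higher, Hnrnpab (0.87) and Hnrnph1 (0.85), and 0 lower. Hnrnpab overlapped, with 57.6, 43.6 and 42.3 CPM against 151, 73.0 and 38.8 CPM, and Hnrnph1 did not. Pcbp2 was at 0.40 (-0.03 to 0.83) and Hnrnpa2b1 at -0.49 (-0.87 to -0.11). The export and exon junction list had a median of 0.04 over 8 genes, or -0.02 without phthalate library 3. The gene Thoc2 was 1.5-fold higher and Thoc7 1.5-fold lower, the latter at -1.22 (-2.01 to -0.48) without overlap. The ratio of Thoc7 was -2.43 without phthalate library 2 and -0.82 without phthalate library 1. Thoc2, of the THO export complex, had 119, 121 and 98.7 CPM in the water libraries and 167, 216 and 225 CPM in the phthalate libraries, without overlap, and a ratio of 0.85 (0.48 to 1.22). Ddx39 was at -0.44 (-0.94 to 0.06), under 1.5-fold, also without overlap. The 3 genes of the minor spliceosome with a mean count of at least 10 had a median of 0.19, which was -0.13 without phthalate library 1 and 0.51 without phthalate library 3. Zrsr2 was at 0.41 (0.06 to 0.77) and Zcrb1 at 0.01 (-0.33 to 0.35).

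**Figure D5:**
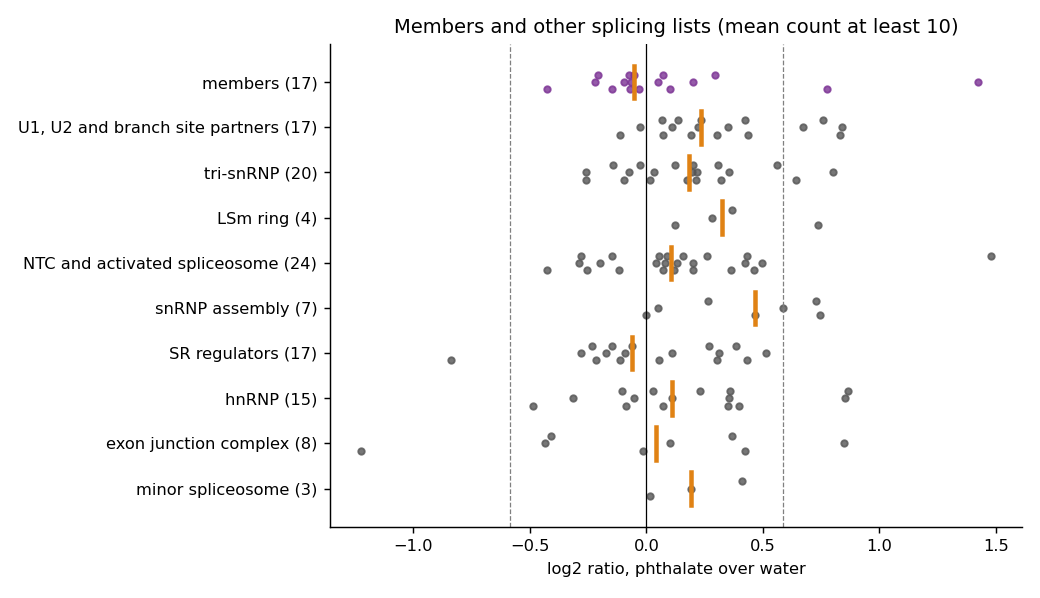
Log2 ratio of phthalate over water for each gene with a mean count of at least 10 among the members (purple) and the 9 other splicing lists (grey), with orange bars at the medians, dashed lines at 1.5-fold and gene numbers in brackets. The members' median of -0.05 and that of the SR regulators, -0.06, lie below 0, and the other 8 medians above 0. With 1 library left out the sign turned for the members, the SR regulators, the exon junction list and the minor spliceosome.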

How the data were processed

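The authors' deposited table gives counts, as whole numbers, for 25239 gene symbols and 92 ERCC spike-in RNAs in 6 libraries. Per the submitters' processing notes, the build was mm10 and the tools included cutadapt, Trimmomatic, HISAT2 and DESeq2. The counting program, the annotation, the use of strand and the treatment of molecular identifiers and of reads with several matches are not given in the sources used here. Per the labels' protocols, libraries were read as pairs of 150 bp. Of member counts from 1 to 20, 65.2% were even, and of all such counts 69.9%, so both mates may have been counted. Intervals were therefore also computed on halved counts.

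ERCC counts were left out. Counts were divided by library totals scaled with TMM factors (0.937 to 1.03, edgeR 4.0.16, R 4.3.3) from the 4511 genes whose mean count reached 10, which held 91.1% to 92.7% of each library's counts. Group sums gave log2 ratios without a pseudocount, a sum of 0 being set to 3 counts, with 95% Clopper-Pearson intervals for counting error (scipy 1.17.1). Called means at least 1.5-fold. The calculation was tested on simulated counts that held counting error only. They had no paired mates, PCR copies or spread between libraries, so the intervals were not checked against these. Transcript lengths, shared 75-base stretches and gene positions came from GENCODE M21 (GRCm38), and promoters from RefSeq (GRCm38.p6).

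Members with a mean count of at least 20, and of each other list the gene with the largest ratio in each direction at that count, were named with their values. The symbol rule uses no measured value, but this set of genes and the lists were chosen with earlier results of these data known. Alternatives were other scaling, other filters, leaving out each library, removal of Rn45s and mean CPM in place of sums. DESeq2 1.42.0 gave the other size factors.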

Additional observations from a re-analysis of the deposited data

How the results depend on the processing

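The count of members at least 1.5-fold higher, 2, was 6 without a filter (beside 21.5% of all genes with a count) and 1 with a mean count of at least 20 (beside 3.92%), and ranged from 1 to 2 with each library left out. The count 1.5-fold lower, 0, was 1 without a filter (beside 18.1%) and ranged from 0 to 1 with a library left out, and without a filter 1 member had all phthalate values below the water values (beside 3.75% of all genes). The members' median log2 ratio ranged from -0.048 to 0.086 with a library left out, the highest without phthalate library 2, and changed sign under 4 of 13 alternatives. For the 9 other splicing lists, 14 higher and 2 lower became 29 and 14 without a filter (where 21.5% and 18.1% of all genes were called) and 5 and 1 at a mean count of at least 20. With a library left out, the higher count ranged from 10 to 18. The lower count ranged from 2 to 5, highest without phthalate library 3. Their median stayed between 0.12 and 0.17 over 13 alternatives. Filters change how many genes are counted, and the cause of the other shifts was not tested. Of 300 member ratios under alternatives, 298 stayed inside their counting interval and 34 changed sign. The exceptions were Srsf11 (2.37) and Snrpa (1.04), both without water library 1. The separate groups of Snrpb2 fix its sign when a library is left out. The U1 and U2 and SR sums without Snrpb2 or Srsf11 were alternatives added after seeing the data. Depth limits the SR genes, where 7 of 11 had mean counts under 10.

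No paired analysis was possible because no result comes from a test, a group being 1 sample.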
